A study of Mus musculus with 6 samples.

Results

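The response shared by anti-PD1 and anti-Lag3 was described by setting the 4 samples that had received either checkpoint antibody against the 2 isotype samples. A gene was counted as standing apart from isotype when its 4 antibody values were all higher, or all lower, than its 2 isotype values. Genes with fewer than 10 reads in the 6 samples together were left out, so that 11877 of 47643 were tested. All 4 antibody samples lay above both isotype samples for 937 genes and below for 899 genes. Both antibodies were compared with the same isotype samples, so an isotype value that is low or high by chance moves both effects the same way.

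The mice were Tg4 Tiger Nr4a3-Tocky animals, in which CD4+ T cells carry a transgenic receptor for myelin basic protein peptide, the Nr4a3 promoter drives a fluorescent Timer protein and an Il10-GFP reporter is present. Every group was primed subcutaneously with 80 μg of [4Y] MBP peptide, received 800 μg of antibody 24 h later and 8 μg of peptide 30 min after that, and spleens were taken 4 h after the second peptide. The isotype group received an equal mixture of rat IgG1 and rat IgG2a, the anti-PD1 group a rat IgG2a antibody and the anti-Lag3 group a rat IgG1 antibody, with 2 samples in each group. The sorted cells were CD4+ cells positive for both the blue and the red form of the Timer, and the age of the mice is not given in the sources used here. Each isotype sample therefore differs from either antibody sample in the antibody mixture as well as in the checkpoint that was blocked.

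PD1 and Lag3 are inhibitory receptors that T cells place on their surface after antigen contact. PD1 recruits tyrosine phosphatases that oppose signalling from the T cell receptor and CD28, and Lag3 binds MHC class II and restrains CD4+ T cells. Genes downstream of the receptor are switched on through NFAT, NF-kB and AP-1 factors and include cytokines, costimulatory receptors and the brakes that end the response.

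Depth was 2107715 to 2648920 reads per sample, so that 3 reads corresponded to 1.11 to 1.44 CPM (reads scaled to a common library total with TMM factors, which correct for library composition). The ribosomal RNA locus Gm42418 took 17.4 to 21.0% of the reads. T cell markers such as Cd3e, Cd4 and Trac were read in every sample and their summed level was 2704 to 3097 CPM. Of the 10 markers on this list 1 lay above isotype (Cd2) and 1 below (Cd3e), against 7.89% and 7.57% over all genes. Log2 changes were under 0 in 7 of the 10, with medians of -0.12 with either antibody, -0.22 with anti-PD1 and 0.03 with anti-Lag3. Markers of other cell types were also read at low levels and are given beside the genes they touch.

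In the quasi-likelihood test of edgeR, adjusted by Benjamini-Hochberg over all 11877 genes, 61 genes differed between either antibody and isotype at an adjusted p under 0.05 (0.514% of genes tested), 40 higher and 21 lower. Of these, 49 also stood apart from isotype (0.413%), 31 higher and 18 lower, and these 49 are the genes described here. Standing apart was by itself common, at 7.89% of all genes above and 7.57% below, and 1787 of the 1836 such genes did not pass the test. The 31 higher genes changed by 0.36 to 2.80 on the log2 scale (median 0.90) and the 18 lower genes by -0.20 to -2.41 (median -0.66), while the median over all genes was -0.005. All 49 kept their direction when any 1 sample was left out, but the calls leaned on single samples: without isotype replicate 2 only 6 genes were called (Il12rb2, Tnip3, Samhd1, Serpinb6b, Hdac7 and Gm42418), and 28 of the 49 were called without isotype replicate 1, 24 without anti-PD1 replicate 1 and 19 without anti-PD1 replicate 2. Genes chosen for standing apart from isotype keep their direction with 1 sample left out almost by construction, so the kept direction is no measure of stability. DESeq2 called 27 of the 45 genes for which it gave an adjusted p.

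**Figure D1:**
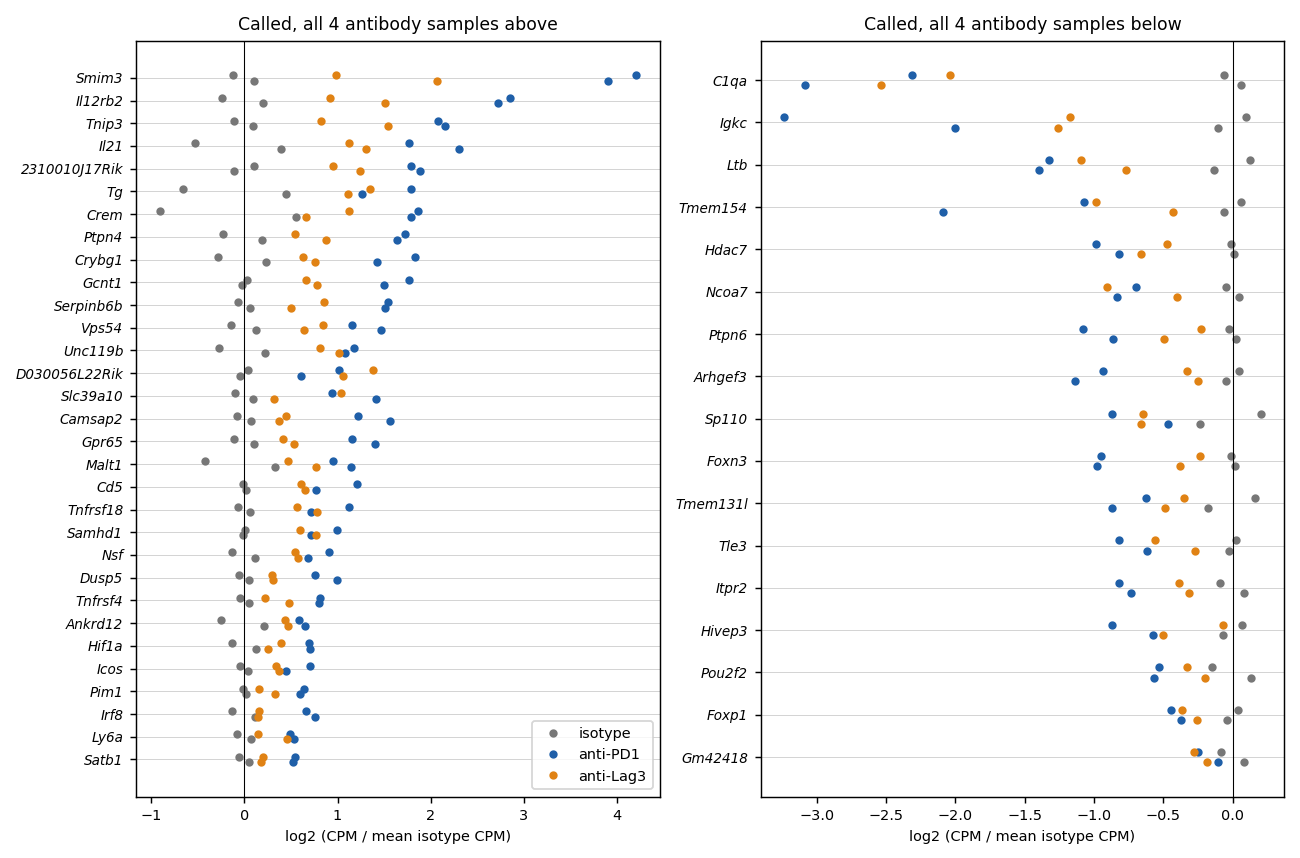
Each row is 1 of 48 of the 49 genes that passed the test of either antibody against isotype and stood apart from isotype, and each point is 1 sample, as the log2 ratio of its CPM to the mean isotype CPM of that gene. The orange anti-Lag3 points lie between the grey isotype and the blue anti-PD1 points in 39 of the 48 genes drawn.

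Il12rb2, Tnip3, Samhd1, Hdac7 and Gm42418 were the 5 of the 49 genes that passed the test against isotype with each antibody taken alone. The anti-Lag3 part of these calls was fragile, since the number of genes called for anti-Lag3 against isotype was 5 as reported, 0 without either anti-PD1 sample (640 and 620 at an unadjusted p under 0.05) or with edgeR's filterByExpr (592), and 1 without isotype replicate 2 or with DESeq2. Il12rb2 encodes the signalling chain of the interleukin-12 receptor, by which T cells become Th1 cells, and Tnip3 encodes a partner of the ubiquitin editor A20 that restrains NF-kB. Samhd1 encodes an enzyme that degrades deoxynucleotides, and Hdac7 encodes a class IIa histone deacetylase that leaves the nucleus of T cells on receptor signalling. Hdac7, Il12rb2, Samhd1, Serpinb6b and Tnip3 passed the test of either antibody against isotype under each of 15 other settings of the tool, scaling, filter or grouping, 6 of which leave out 1 sample.

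Il12rb2 (ENSMUSG00000018341, chr6:67291318-67376188, minus strand, GRCm38) stood at 17.4 and 12.9 CPM in isotype replicates 1 and 2, 100.1 and 109 CPM in the anti-PD1 samples, and 43.0 and 28.6 CPM in the anti-Lag3 samples. The 3 groups were fully separated, with anti-Lag3 between the others. Serbp1 overlaps Il12rb2 on the opposite strand, and the strand setting of the counting is not given in the sources used here. Il12rb2 was 4.05-fold higher with either antibody (log2 2.02 ± 0.22 SE, n = 4 against 2, adjusted p = 4.52e-07), at log2 2.80 ± 0.24 with anti-PD1 and 1.24 ± 0.26 with anti-Lag3 (adjusted p = 1.55e-10 and 0.0497).

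Tnip3 (ENSMUSG00000044162, chr6:65525313-65634040, plus strand) stood at 27.8 and 24.2 CPM with isotype, 116 and 109.6 CPM with anti-PD1, and 75.9 and 46.1 CPM with anti-Lag3. It too was ordered isotype, anti-Lag3, anti-PD1 with no overlap, and was 3.19-fold higher with either antibody (log2 1.67 ± 0.20, adjusted p = 9.77e-07). The change in Tnip3 was 2.12 ± 0.21 with anti-PD1 and 1.23 ± 0.22 with anti-Lag3.

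Samhd1 (ENSMUSG00000027639, chr2:157097533-157135265, minus strand) behaved differently in that the antibody groups were mixed, at 188 and 228 CPM with anti-PD1 and 195 and 174 CPM with anti-Lag3, against 114 and 116 CPM with isotype. Samhd1 rose by log2 0.77 ± 0.12 with either antibody (adjusted p = 0.000181), and the effects of the 2 antibodies differed by 0.18, with a 95% interval of -0.09 to 0.44.

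Hdac7 (ENSMUSG00000022475, chr15:97792664-97844502, minus strand) fell from 554 and 546 CPM with isotype to 312 and 278 CPM with anti-PD1 and 348 and 396 CPM with anti-Lag3. This was 1.66-fold lower with either antibody (log2 -0.73 ± 0.09, adjusted p = 1.92e-06). The anti-PD1 and anti-Lag3 changes in Hdac7 were -0.90 ± 0.11 and -0.56 ± 0.11. Slc48a1 overlaps Hdac7 on the opposite strand, with the same limit on strand. Gm42418, which lies over ribosomal RNA sequence on chromosome 17, took 21.0 and 19.4% of the reads with isotype, 19.1 and 17.7% with anti-PD1 and 18.7 and 17.4% with anti-Lag3, and changed by only log2 -0.20 ± 0.04 (adjusted p = 0.00134). Its call was lost without isotype replicate 1 (adjusted p = 0.387) and without anti-PD1 replicate 2 (0.222).

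The 250 bases before the RefSeq start (GRCm38.p6) are printed for the 3 genes that were higher with each antibody taken alone, which is why they are shown, and 39 of the 49 genes had a RefSeq window under their symbol. Capitals mark matches, on either strand, to the letters TGANTCA (AP-1) or GGAAA (NFAT), which do not overlap each other here. The RefSeq starts of Tnip3 and Samhd1 lie inside the GENCODE extent of these genes. Bases printed as upstream are wholly within the annotated gene for Tnip3 and in part for Samhd1.
Il12rb2 (chr6:67376189-67376438, minus strand): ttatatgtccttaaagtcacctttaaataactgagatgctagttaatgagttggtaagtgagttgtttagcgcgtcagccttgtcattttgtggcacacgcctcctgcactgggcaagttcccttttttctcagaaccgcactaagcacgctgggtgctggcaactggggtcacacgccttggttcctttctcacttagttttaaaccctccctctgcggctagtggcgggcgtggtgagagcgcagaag
Tnip3 (chr6:65590148-65590397, plus strand): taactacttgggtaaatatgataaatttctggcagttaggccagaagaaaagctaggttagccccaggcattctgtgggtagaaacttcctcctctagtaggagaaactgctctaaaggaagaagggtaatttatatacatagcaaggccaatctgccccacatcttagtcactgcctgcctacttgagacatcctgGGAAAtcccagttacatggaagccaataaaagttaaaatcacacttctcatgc
Samhd1 (chr2:157135097-157135346, minus strand): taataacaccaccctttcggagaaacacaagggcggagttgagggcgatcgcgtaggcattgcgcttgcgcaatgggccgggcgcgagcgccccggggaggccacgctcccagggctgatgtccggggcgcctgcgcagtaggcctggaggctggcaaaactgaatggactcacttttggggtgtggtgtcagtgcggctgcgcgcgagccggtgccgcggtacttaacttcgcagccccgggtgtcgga

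Only Tnip3 held a match, 1 NFAT match whose first base lies 53 bases before the RefSeq start, within the GENCODE extent of the gene. Of 32851 windows of this length over all genes, 55.6% held the NFAT letters and 6.75% the AP-1 letters. A match is a description of the letters and a window without one says nothing about the factor.

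Receptors that costimulate T cells included Icos, OX40 and GITR among the rises. Of 13 costimulatory receptors tested, 4 lay above isotype (Icos, Cd2, Tnfrsf4 and Tnfrsf18) and 1 below (Cd226), and 3 passed the test, all higher, against 7.89% above, 7.57% below and 0.514% passing over all genes. The median log2 change of the 13 was 0.14, and with DESeq2 size factors, upper-quartile factors or the deposited log values 3 of the 13 lay above.

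Tnfrsf18, which encodes GITR, stood at 119 and 109 CPM with isotype, 187 and 248 CPM with anti-PD1, and 196 and 168 CPM with anti-Lag3, with the antibody samples intermixed. Tnfrsf18 rose by log2 0.81 ± 0.13 (adjusted p = 0.000181), and in the comparison of anti-Lag3 alone with isotype its adjusted p was 0.0508. Tnfrsf4, its neighbour on chromosome 4, which encodes OX40, stood at 242 and 226 CPM with isotype, 408 and 411 CPM with anti-PD1, and 328 and 274 CPM with anti-Lag3.

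Tnfrsf4 was thus ordered by group, and rose by log2 0.58 ± 0.10 (adjusted p = 0.000821). Icos, the inducible costimulator that is needed for help to B cells, was at 739.9 and 696 CPM with isotype, 981 and 1169.9 CPM with anti-PD1, and 928 and 910.0 CPM with anti-Lag3. Icos rose by log2 0.47 ± 0.08 (adjusted p = 0.000824). Without isotype replicate 2 the adjusted p was 0.0706 for Tnfrsf18, 0.175 for Tnfrsf4 and 0.183 for Icos, and without anti-PD1 replicate 2 that of Icos was 0.0708.

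Of 12 inhibitory receptors and ligands tested, 2 lay above isotype (Cd5 and Ctla4) and 2 below (Cd200 and Btla). This was 16.7% in each direction, against 7.89% above and 7.57% below over all genes, of which 0.514% passed the test. Cd5, a surface brake whose level follows the strength of receptor signalling, stood at 42.4 and 41.5 CPM with isotype, 71.4 and 96.9 CPM with anti-PD1, and 65.8 and 63.9 CPM with anti-Lag3. Cd5 was the only one of the 12 to pass the test (log2 0.82 ± 0.17, adjusted p = 0.0107), and it did not pass without isotype replicate 1 (0.0864), isotype replicate 2 (0.315) or anti-PD1 replicate 2 (0.194).

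Ctla4, which competes with CD28 for its ligands, was at 70.2 and 60.8 CPM with isotype and 88.6 to 111 CPM in the 4 antibody samples, and did not pass (log2 0.54 ± 0.15, adjusted p = 0.11). No difference was detected in the targets of the antibodies. Pdcd1, which encodes PD1, was at 12.3 to 17.1 CPM and Lag3 at 2.60 to 7.59 CPM over the 6 samples, with log2 changes of -0.09 ± 0.32 and 0.14 ± 0.59 and overlapping groups.

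Among 14 cytokines and TNF ligands tested, 3 lay above isotype (Il21, Il10 and Il2) and 2 below (Ltb and Ebi3). These shares were 21.4% and 14.3%, against 7.89% and 7.57% over all genes. Il21, the cytokine of follicular helper and Th17 cells, stood at 16.0 and 8.45 CPM with isotype, 60.4 and 41.7 CPM with anti-PD1, and 30.4 and 26.7 CPM with anti-Lag3. The groups were separated and Il21 was 3.15-fold higher (log2 1.66 ± 0.27, adjusted p = 0.000499), with an adjusted p of 0.235 without isotype replicate 2. Gm12534 lies across Il21 on the opposite strand, and the strand setting of the counting is not given in the sources used here.

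Ltb, which encodes the membrane partner of lymphotoxin, changed the other way, from 50.4 and 60.4 CPM with isotype to 21.1 and 22.1 CPM with anti-PD1 and 32.5 and 26.0 CPM with anti-Lag3. Ltb was 2.21-fold lower (log2 -1.14 ± 0.20, adjusted p = 0.000941), and its adjusted p was 0.237 without isotype replicate 2. Il10 stood apart, at 3.30 and 2.01 CPM with isotype and 5.48 to 9.10 CPM with antibody, but did not pass (log2 1.42 ± 0.57, adjusted p = 0.52), and Il2 did not either (0.89 ± 0.38, adjusted p = 0.56). Of 18 cytokine receptors, 3 lay above isotype (16.7%) and 0 below, against 7.89% and 7.57% over all genes, of which 0.514% passed. Il12rb2 was the one of the 3 that passed, while Il23r and Il1r1 passed with an anti-Lag3 sample overlapping isotype.

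In the NF-kB and NFAT pathway 5 of 22 genes tested lay above isotype and 1 below, and Malt1 and Tnip3 passed. These shares were 22.7% and 4.5%, against 7.89% and 7.57% over all genes, of which 0.514% passed. Malt1 encodes the paracaspase that joins the T cell receptor to NF-kB. Malt1 stood at 109 and 64.8 CPM with isotype, 193 and 169 CPM with anti-PD1, and 148 and 120.3 CPM with anti-Lag3. Malt1 rose by log2 0.85 ± 0.15 (adjusted p = 0.000971), and the distance between the isotype samples was large, since its change without isotype replicate 2 was 0.51 (adjusted p = 0.464).

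Of 25 negative feedback regulators tested, 7 lay above isotype (Dusp5, Dusp6, Ptpn2, Rgs16, Spry1, Socs1 and Socs3) and 1 below, Ptpn6. These shares were 28% and 4%, against 7.89% and 7.57% over all genes, and the median log2 change of the list was 0.18. Dusp5 encodes a phosphatase that inactivates ERK in the nucleus. It was at 67.4 and 62.4 CPM with isotype, 129 and 109.6 CPM with anti-PD1, and 80.1 and 79.9 CPM with anti-Lag3. It passed narrowly (log2 0.59 ± 0.15, adjusted p = 0.0494) and lost the call in 11 of the 15 other settings.

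Ptpn6 encodes SHP-1, a phosphatase that opposes the proximal receptor kinases. It stood at 228 and 220.2 CPM with isotype, 123 and 106 CPM with anti-PD1, and 159 and 192 CPM with anti-Lag3. Ptpn6 fell by 0.66 on the log2 scale (SE 0.11, adjusted p = 0.000732). It was the only member of its list to lie below isotype. Of the 25 genes 18 had log2 changes above 0 and 7 under 0, where 5841 of all 11877 genes were above 0. Without isotype replicate 2 its adjusted p was 0.0584. A further phosphatase gene outside these lists, Ptpn4, was 2.30-fold higher with either antibody (adjusted p = 0.000105), at 37.7 and 28.2 CPM with isotype, 103 and 109 CPM with anti-PD1, and 60.3 and 47.9 CPM with anti-Lag3, and its adjusted p was 0.0764 without isotype replicate 2.

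Transcription factors were found on both sides. Irf8, a factor of the interferon regulatory family, stood at 264 and 223 CPM with isotype, 411 and 384 CPM with anti-PD1, and 270.3 and 271 CPM with anti-Lag3, so that the anti-Lag3 samples lay just above the higher isotype sample. Its log2 change with either antibody was 0.43 ± 0.10 (adjusted p = 0.0318), made up of 0.71 ± 0.11 with anti-PD1 and 0.16 ± 0.12 with anti-Lag3. It lost the call without isotype replicate 2 (adjusted p = 0.603), anti-PD1 replicate 1 (0.206) or anti-PD1 replicate 2 (0.141). Of 12 IRF, BATF and BACH factors tested, 3 lay above (Irf8, Irf4 and Batf) and 2 below (Irf9 and Irf2), and only Irf8 passed. These shares were 25% and 16.7%, against 7.89% and 7.57% over all genes, of which 0.514% passed.

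Hif1a, the oxygen-sensing factor that drives glycolytic genes, was at 384 and 321 CPM with isotype, 574 and 571 CPM with anti-PD1, and 421 and 464 CPM with anti-Lag3 (log2 0.52 ± 0.09, adjusted p = 0.00134; 0.360 without isotype replicate 2). Of the glycolysis list 2 of 18 genes lay above isotype, Tpi1 and the glucose transporter Slc2a1 (11.1%, against 7.89% over all genes), and 0 passed. Crem, which encodes a repressor and activator of cyclic AMP targets, was at 25.4 and 9.26 CPM with isotype, 59.9 and 63.0 CPM with anti-PD1, and 27.4 and 37.9 CPM with anti-Lag3. Crem rose by log2 1.40 ± 0.26 (adjusted p = 0.00252), and its nearest antibody sample was close to the higher isotype sample, so that its change without isotype replicate 2 was 0.82 (adjusted p = 0.468) and its adjusted p without anti-PD1 replicate 2 was 0.0563.

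Among genes of the quiescent and lymphoid-homing state 1 passed as higher and 1 as lower. Satb1, a chromatin organiser of T cells, was at 1078 and 998 CPM with isotype, 1487 and 1517 CPM with anti-PD1, and 1176 and 1190.1 CPM with anti-Lag3 (log2 0.36 ± 0.07, adjusted p = 0.00667). Foxp1, a factor that keeps naive T cells quiescent, was lower, at 631 and 664 CPM with isotype, 499 and 476 CPM with anti-PD1, and 542 and 503 CPM with anti-Lag3 (log2 -0.36 ± 0.08, adjusted p = 0.0295). Over the list 1 of 20 genes lay above isotype and 2 below (5% and 10%, against 7.89% and 7.57% over all genes, of which 0.514% passed). Neither call held without isotype replicate 2, where the adjusted p was 0.394 for Satb1 and 0.468 for Foxp1, nor without either anti-PD1 sample, where it was 0.0742 to 0.236, and Foxp1 also lost the call without isotype replicate 1 (0.105).

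The other higher genes were led by Smim3, a small membrane protein gene, which had 3 reads in each isotype sample. Its pooled reads were 100 with anti-PD1 and 20 with anti-Lag3 against 6 with isotype, a ratio of rates of 16.9 (95% exact interval 7.51 to 47.3) and 3.03 (1.17 to 9.23). These intervals cover counting error only. Serpinb6b, an inhibitor of serine proteases, was at 64.1 and 58.4 CPM with isotype, 175 and 178 CPM with anti-PD1, and 86.9 and 111 CPM with anti-Lag3, with full separation (log2 1.11 ± 0.14, adjusted p = 4.61e-06).

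Gpr65, a proton-sensing receptor, rose by log2 0.88 ± 0.15 (adjusted p = 0.000542), and Crybg1 by 1.18 ± 0.17 (adjusted p = 2.62e-05), with the anti-Lag3 samples between the other groups in both. Without isotype replicate 2 the adjusted p was 0.151 for Gpr65, 0.0584 for Crybg1 and 0.300 for Smim3, and Smim3 also lost the call without isotype replicate 1 (0.0604) or anti-PD1 replicate 2 (0.126). Slc39a10, a zinc importer, was at 40.1 and 35.0 CPM with isotype, 99.7 and 72.0 CPM with anti-PD1, and 46.8 and 76.9 CPM with anti-Lag3 (log2 0.96 ± 0.19), with the antibody samples mixed. Ly6a, the activation antigen Sca-1, was at 392 and 355 CPM with isotype, 540.5 and 523 CPM with anti-PD1, and 512 and 413 CPM with anti-Lag3 (log2 0.41 ± 0.09). Nsf, which takes apart complexes left by vesicle fusion, and Vps54, a part of a vesicle tethering complex, changed by 0.69 ± 0.14 and 1.03 ± 0.25. The calls of Slc39a10, Ly6a, Nsf and Vps54 were lost in 2, 7, 2 and 9 of the 15 other settings.

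The remaining higher genes were 2310010J17Rik, Tg, Gcnt1, Unc119b, D030056L22Rik, Camsap2, Ankrd12 and Pim1. In that order, their calls were lost in 2, 8, 9, 8, 11, 8, 6 and 9 of the 15 other settings. Reads of Tg, the thyroglobulin gene, cannot be told from those of Sla, an adaptor gene of lymphocytes that overlaps it on the other strand, unless strand was used in counting. Pim1, a survival kinase induced by cytokines, was at 177 and 173 CPM with isotype, 265 and 273 CPM with anti-PD1, and 220.1 and 196 CPM with anti-Lag3 (log2 0.43 ± 0.11, adjusted p = 0.0492), and lost the call in 9 of 15 settings.

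The lower genes held further regulators of transcription and signalling, each of modest size. Foxn3, a forkhead repressor, was at 115 and 112 CPM with isotype, 57.5 and 58.9 CPM with anti-PD1, and 87.3 and 96.6 CPM with anti-Lag3 (log2 -0.63 ± 0.14, adjusted p = 0.0147). Tle3, a corepressor, Pou2f2, the octamer factor Oct-2, and Hivep3, a zinc finger protein, changed by -0.56 ± 0.14, -0.41 ± 0.10 and -0.49 ± 0.12.

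Itpr2, a channel that releases calcium from the endoplasmic reticulum, was at 122 and 108 CPM with isotype and 65.0 to 92.4 CPM with antibody, with the anti-PD1 samples lowest (log2 -0.56 ± 0.14, adjusted p = 0.0428). Arhgef3 was at 77.3 and 82.5 CPM with isotype, 36.4 and 41.7 CPM with anti-PD1, and 67.1 and 63.5 CPM with anti-Lag3, and its ratio of effects, 0.285, was the lowest among the lower genes. Tmem154, Tmem131l and Ncoa7 changed by -1.08 ± 0.24, -0.58 ± 0.13 and -0.70 ± 0.14.

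Among these lower genes Hivep3, Pou2f2 and Itpr2 each lost the call in 8 of 15 settings, Tle3 in 9 and Arhgef3 in 7. Foxn3, Tmem131l and Tmem154 lost it in 5 and Ncoa7 in 4. Such losses were not particular to lower genes, since the higher genes Dusp5 and D030056L22Rik lost the call in 11 settings. Hivep3 was the gene just inside the limit of standing apart, with its nearest antibody and isotype samples 1.00-fold apart, and with library totals alone as the scaling it no longer stood apart. Just outside the limit were Cblb (nearest samples at a ratio of 0.991), which encodes a ubiquitin ligase that restrains T cells, and Slamf6 (0.948).

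C1qa and Igkc had the largest falls and belong to other cell types. C1qa, a complement gene of macrophages, was at 12.7 and 11.7 CPM with isotype, 1.44 and 2.45 CPM with anti-PD1, and 2.11 and 2.97 CPM with anti-Lag3 (log2 -2.41 ± 0.50, adjusted p = 0.00866). Igkc, the kappa light chain of B cells, was at 17.9 and 20.5 CPM with isotype, 4.79 and 2.04 CPM with anti-PD1, and 8.01 and 8.54 CPM with anti-Lag3 (log2 -1.86 ± 0.36, adjusted p = 0.00466). C1qa lost the call without either isotype sample (adjusted p = 0.123 and 0.266) or anti-PD1 replicate 1 (0.0686), and Igkc without isotype replicate 2 (0.286) or anti-PD1 replicate 2 (0.0964). In bulk samples fewer cells of a type and less RNA per cell cannot be told apart.

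Both genes belong to marker lists of which no other member passed the test. Of 12 macrophage markers tested 6 lay below isotype, C1qa among them, and 0 above, against 7.57% below over all genes, and their summed level was 102.7 and 71.6 CPM with isotype against 31.6 to 57.2 CPM with antibody. Of 11 B cell markers tested 6 lay below, Igkc among them, and 0 above, and the sum was 167 and 196 CPM with isotype, 84.8 and 83.4 CPM with anti-PD1, and 102 and 172 CPM with anti-Lag3, so that 1 anti-Lag3 sample reached the isotype range. Of the B cell list Cd79a was at 0 in all 6 samples, and of the macrophage list none was.

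For CD8 T and NK cells 3 of 5 markers tested lay below isotype (Cd8a, Cd8b1 and Eomes), against 7.57% over all genes. The list summed to 66.0 and 52.3 CPM with isotype and 35.7 to 41.7 CPM with antibody. Eomes had only 1 to 7 reads per sample. Gzma and Klrk1, also tested, overlapped. Gzma had 14 and 3 reads with isotype, 9 and 19 with anti-PD1, and 3 and 5 with anti-Lag3. Klrk1 had 2 and 0, 0 and 8, and 3 and 1 reads in the same order. None of the 7 dendritic cell markers reached 10 reads and 3 were at 0 throughout. Neutrophil markers summed to 8.01 and 19.7 CPM with isotype and 4.09 to 6.71 CPM with antibody, and erythroid markers overlapped between groups at 18.7 to 51.8 CPM. The part of these cells in the other 47 genes was not tested.

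**Figure D2:**
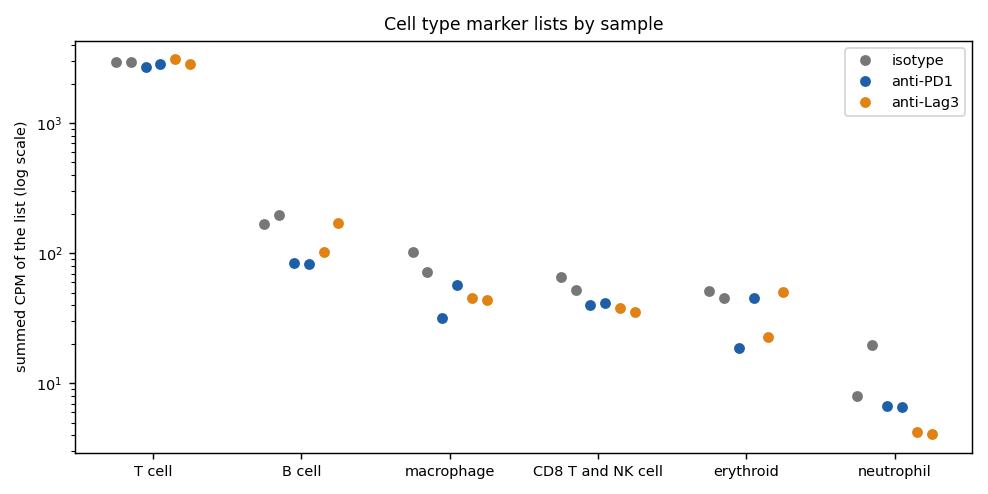
Each point is the summed CPM of a cell type's marker genes in 1 sample, on a log scale, coloured by group. T cell markers lie at 2704 to 3097 CPM in all 6 samples, while the macrophage and the CD8 T and NK cell sums of the 4 antibody samples lie below those of both isotype samples and 1 anti-Lag3 sample overlaps isotype for B cells.

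No immediate early gene of the receptor response passed the test, the reporter gene of the sort included. Nr4a3, by whose promoter the cells were sorted, was at 51.4 and 45.1 CPM with isotype, 29.7 and 29.4 CPM with anti-PD1, and 40.9 and 36.8 CPM with anti-Lag3, below isotype in 4 of 4 samples but without passing (log2 -0.51 ± 0.19, adjusted p = 0.45). Of 17 immediate early genes 1 lay above isotype, Junb, and 1 below, Nr4a3, which is 5.88% each against 7.89% and 7.57% over all genes. Log2 changes were above 0 in 7 of the 17, where 5841 of all 11877 genes were above 0. Cd69 was at 60.4 and 72.1 CPM with isotype and 36.3 to 78.1 CPM with antibody, and Nr4a1 overlapped as well (log2 -0.05 ± 0.21).

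Further lists are given as counts, to be read against 7.89% above and 7.57% below over all genes. No gene of the adhesion list (15 tested) or the cholesterol list (20 tested) stood apart. For interferon-stimulated genes 2 of 24 lay above, for MYC and ribosome biogenesis genes 2 of 25 above and 2 below, for DNA replication genes 3 of 22 above and 2 below, and for mitosis genes 0 of 18 above and 3 below. Chaperones had 3 of 18 above and 1 below, chemokines and their receptors 2 of 12 above and 1 below, and cytosolic ribosomal proteins 10 of 81 above and 1 below (22 and 0 with library totals alone). The ATF4 and amino acid supply genes had log2 changes under 0 in 18 of 19, where 6036 of all 11877 genes did, and 1 gene lay apart from isotype. Their median was -0.15 with either antibody, -0.05 with anti-PD1 and -0.28 with anti-Lag3. No gene of these 10 lists passed the test. With library totals alone as the scaling, 1244 genes lay above and 661 below, so that 65.3% of the genes that stood apart were higher rather than 51.0%. The mitosis counts then became 2 above and 2 below, and those of DNA replication and of chaperones 5 and 1 each. Interferon-stimulated genes had 4 above and 0 below, MYC and ribosome biogenesis genes 3 and 0, and the cholesterol list 1 and 0. The adhesion, chemokine and ATF4 counts stayed the same.

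**Figure D3:**
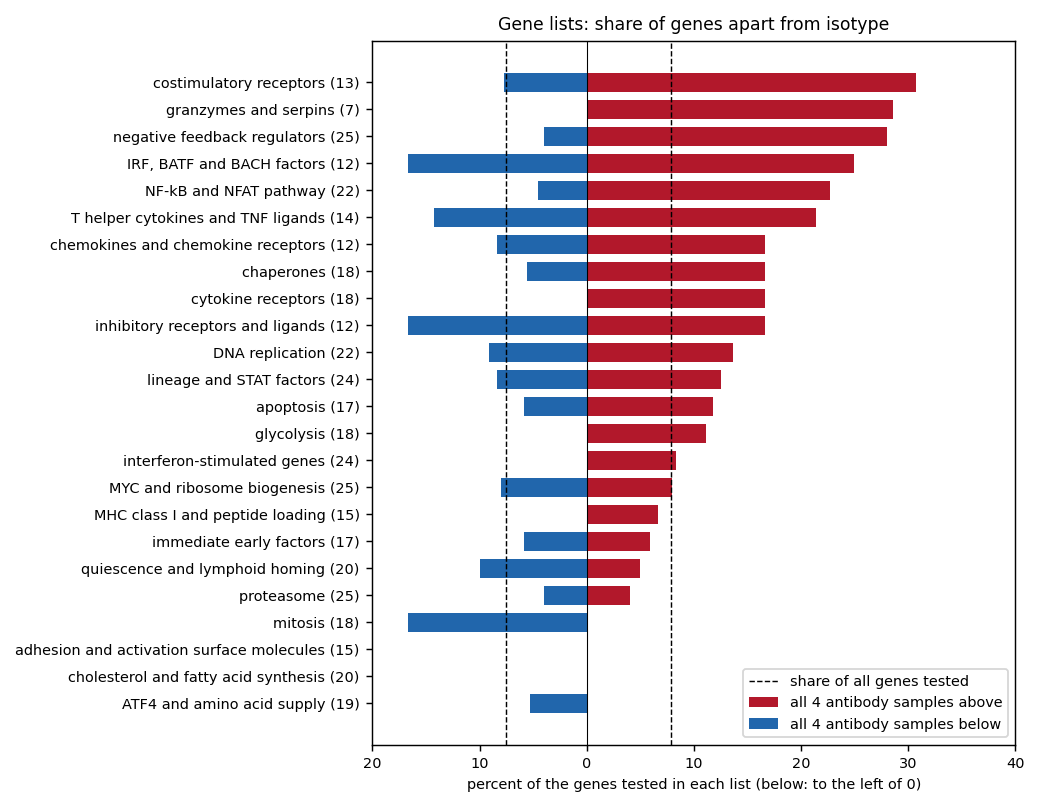
Bars give, for each list with the number of genes tested in brackets, the percentage of its genes with all 4 antibody samples above (red, right) or below (blue, left) both isotype samples, and dashed lines mark 7.89% and 7.57%, the shares over all genes tested. Costimulatory receptors (4 of 13) and negative feedback regulators (7 of 25) reach furthest above, together with a list of 7 granzymes and serpins, 2 of them above (1 with DESeq2 size factors).

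The 49 genes were also set beside gene lists from another experiment of the study, in which a strong peptide dose was compared with a weak one 4 h after a first immunization. The list higher with the strong dose holds 2.80% of the genes tested here and the lower list 2.42%. Of the 31 higher genes 18 were on the list higher with the strong dose and 0 on the list lower with it, and of the 18 lower genes 4 (Hdac7, Ltb, Pou2f2 and Ptpn6) were on the lower list and 0 on the higher list. Over the whole of the higher list, 80 of 332 genes tested lay above isotype and 15 below, with a median log2 change of 0.29, and 23 passed as higher and 0 as lower, where over all 11877 genes 937 lay above, 40 passed as higher and 21 as lower. Over the lower list 9 of 287 lay above (3.14%) and 48 below (16.7%), with 0 passing as higher and 4 as lower. The shares over all genes were 7.89% above and 7.57% below. The 2 experiments used the same mouse line and no test of this likeness was made.

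Taken antibody by antibody over all genes, 107 genes passed for anti-PD1 against isotype (0.901% of those tested), 75 higher and 32 lower, and 5 for anti-Lag3 against isotype (0.0421%), 3 higher and 2 lower. The counts at an unadjusted p under 0.05 were 964 and 708. Of the 49 genes, 47 passed with anti-PD1 alone, 5 with anti-Lag3 alone and 2, Sp110 and D030056L22Rik, with neither.

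The size of the anti-Lag3 effect relative to that of anti-PD1 was read as the ratio of the log2 fold changes. Its median over the 49 genes was 0.565, with quartiles of 0.426 and 0.683, and it was similar for higher (0.569) and lower genes (0.524). The median change of the higher genes was 1.14 with anti-PD1 and 0.68 with anti-Lag3, and that of the lower genes -0.84 and -0.42. In 23 genes the ratio was under 0.5, in 20 between 0.5 and 0.8 and in 6 at 0.8 or more.

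Both effects in each ratio are measured from the same isotype samples. With the isotype samples split, so that each antibody was set against a different one, the median ratio over the same genes was 0.649 or 0.405, depending on which antibody took which sample. Within samples numbered 1 it was 0.512, and within samples numbered 2 it was 0.508.

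The anti-PD1 change was the larger in 47 of the 49 genes. Among all 1836 genes that stood apart it was the larger in 990 (53.9%). Both anti-Lag3 samples lay between the isotype and the anti-PD1 samples in 40 of the 49 genes, 26 higher and 14 lower, and in 418 genes in all (3.52% of those tested, 22.8% of those apart from isotype). The 9 genes without this order were C1qa, D030056L22Rik, Gm42418, Ncoa7, Samhd1, Slc39a10, Sp110, Tg and Tnfrsf18. The 49 genes were chosen on the mean of both effects, and a gene with a large anti-PD1 change can enter on that change alone.

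**Figure D4:**
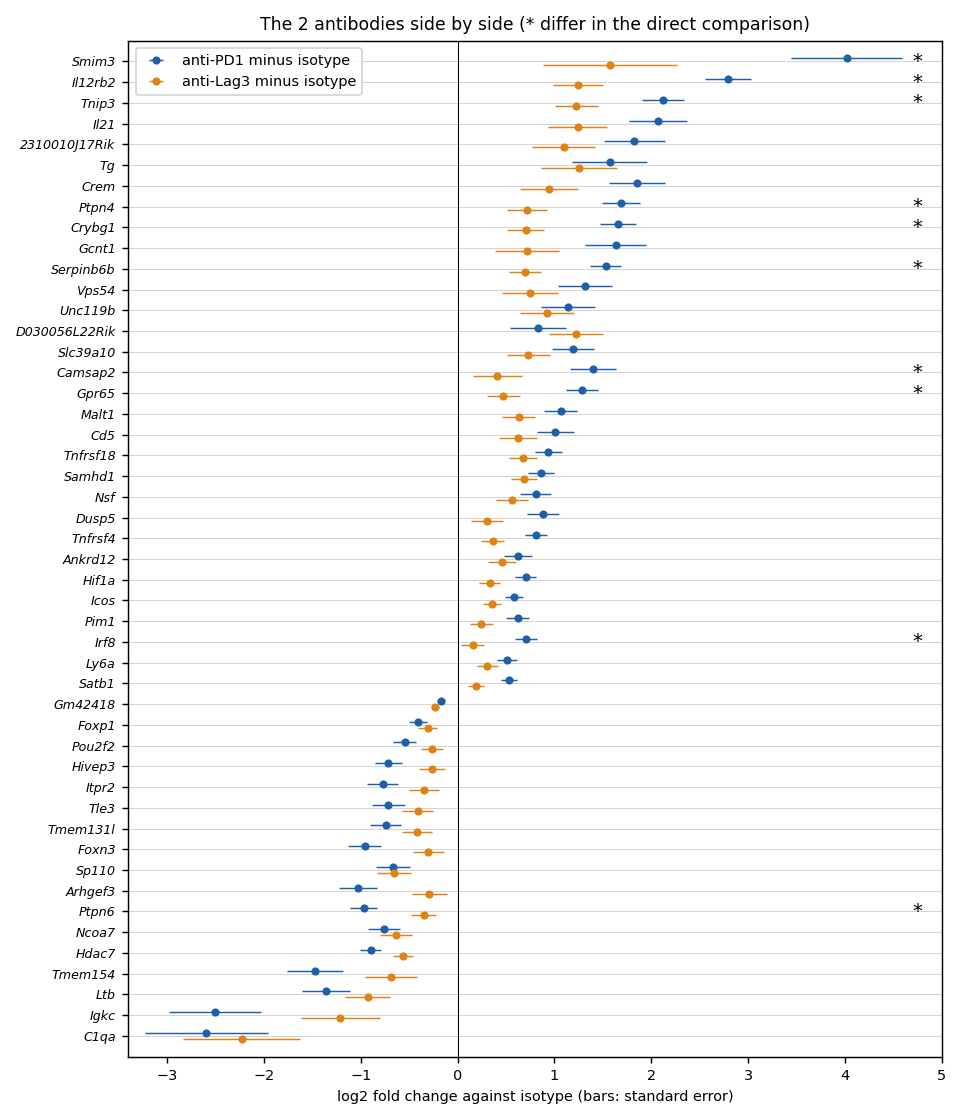
For 48 of the 49 genes the blue point is the log2 fold change of anti-PD1 and the orange point that of anti-Lag3 against the shared isotype samples, with standard errors as bars, and an asterisk marks genes that passed in the direct comparison of the antibodies. The blue point lies further from 0 in 46 genes, and 10 genes carry an asterisk.

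The difference between the antibodies was tested directly. Its estimate is not measured from the isotype samples, though they enter its scaling and error through the fit of all 6 samples. Over all genes 36 differed between anti-PD1 and anti-Lag3 (0.303%), 29 higher and 7 lower with anti-PD1. Of the 49 genes 10 did so. Il12rb2, Tnip3, Smim3, Ptpn4, Crybg1, Serpinb6b, Camsap2, Gpr65 and Irf8 were higher with anti-PD1 than with anti-Lag3, and Ptpn6 was lower.

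Il12rb2 had the firmest difference, at log2 1.56 with a 95% interval of 1.13 to 1.98 (adjusted p = 2.49e-05), although it also passed with each antibody alone. Ptpn6 differed by -0.62 (-0.90 to -0.34, adjusted p = 0.0248). The ratio of effects in these 10 genes ran from 0.219 for Irf8 to 0.578 for Tnip3. With anti-PD1 replicate 2 left out only 3 genes in all differed between the antibodies, and 10 with anti-PD1 replicate 1 left out.

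For the other 39 genes a difference between the antibodies was not detected at this depth and number of samples. The nearest effects were those of Sp110, a nuclear body protein, which was at 95.2 and 129 CPM with isotype, 81.0 and 61.3 CPM with anti-PD1 and 70.8 and 71.7 CPM with anti-Lag3. The difference in Sp110 was -0.01, with an interval of -0.37 to 0.36. Gm42418 (0.06, -0.03 to 0.14), Foxp1 (-0.10, -0.30 to 0.10), Ncoa7 (-0.12, -0.47 to 0.23) and Ankrd12 (0.17, -0.12 to 0.45) followed.

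The anti-Lag3 change was the larger in D030056L22Rik and Gm42418. D030056L22Rik was at 15.6 and 16.5 CPM with isotype, 24.4 and 32.3 CPM with anti-PD1, and 33.3 and 41.6 CPM with anti-Lag3. Its ratio of effects, 1.48, was the highest of the 49, but the direct difference of -0.40 had an interval of -0.93 to 0.13.

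Of the 36 genes that differed between the antibodies, 8 had log2 changes of opposite sign against isotype by their point estimates. Among them Atf4, the central factor of the amino acid response, changed by 0.25 with anti-PD1 and -0.43 with anti-Lag3, and its target Chac1 by 0.91 and -1.59. Dock10, Klf6 and Traf1 were further members of this group, with anti-Lag3 changes of -0.03, -0.09 and -0.30 against 0.61, 0.90 and 0.68 with anti-PD1.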

How the data were processed

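Flow-sorted T cells of 2 samples per group were sequenced from the 3′ end of transcripts (QuantSeq forward kit). The authors trimmed reads, aligned them with STAR 2.5.2a to GRCm38 (mm10) and counted them per gene with HTSeq. The deposited raw counts were used for all tests, and the deposited log2 values (DESeq2 regularised log) only as an alternative. The strand setting and annotation release of the counting are not given in the sources used here, and gene names and overlaps were taken from GENCODE M21, which named 47224 of 47643 identifiers. Without strand, reads of overlapping genes cannot be told apart, and of the 49 genes described 17 are overlapped on the same and 24 on the other strand.

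Genes with at least 10 reads over the 6 samples were tested with edgeR 4.0.16 (quasi-likelihood test, 3 groups, TMM factors, Benjamini-Hochberg adjustment), in R 4.3.3. Either antibody was the mean of both antibody groups minus isotype. Errors are standard errors of the fit and intervals are 95%. The labels name the samples as replicates, and p-values measure the spread between these samples. In the fit the spread of each gene is drawn largely towards the trend over all genes (37.2 prior degrees of freedom). P-values, standard errors and intervals therefore rest only in part on that gene's own 2 samples per group. Replicates of each group differed by more than sampling (chi-square 2.65 to 3.29 per degree of freedom) and counted as separate samples. limma 3.58.1 and DESeq2 1.42.0 were alternatives. Named genes were those with the largest changes or smallest adjusted p among called genes averaging at least 10 CPM, called genes of the lists, genes the study names, genes that differed most or least between the antibodies, and genes nearest the limit. The rest of the 49 genes are named so that they are accounted for, except 1 that is not reported here by name and is not drawn. Genes, members and lists were chosen with earlier results of these data known. A further batch that the authors excluded was not used here.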

Additional observations from a re-analysis of the deposited data

Results flagged for a closer look

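The genes listed here passed the test of either antibody against isotype and also differed between the antibodies in the direct comparison (edgeR, adjusted p under 0.05), so their shared change is not of one size. There were 20 such genes, of which 10 did not stand apart from isotype because an anti-Lag3 sample overlapped an isotype sample. All values are the log2 fold change of anti-PD1 minus anti-Lag3.

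Among genes that stood apart from isotype the difference was 2.45 for Smim3, 1.56 for Il12rb2, 0.97 for Ptpn4, 0.95 for Crybg1, 0.99 for Camsap2, 0.89 for Tnip3, 0.83 for Serpinb6b, 0.81 for Gpr65, 0.55 for Irf8 and -0.62 for Ptpn6. Among genes whose anti-Lag3 samples overlapped isotype it was 1.90 for Il23r, the receptor of interleukin-23, 1.29 for Il1r1, 1.10 for Rora, a factor of Th17 cells, 1.05 for Arap2, 1.27 for Serpinb9, 0.86 for Furin and 0.61 for Cblb, and it was negative for Slamf6 (-0.88) and Lta (-1.40). It was 2.11 for Gm12534, a gene on the strand opposite Il21. Without anti-PD1 replicate 2 only 3 genes in all differed between the antibodies. The cause was not tested.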

How the results depend on the processing

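All 49 genes kept their direction under every alternative that gave them a value. Since they were chosen for standing apart from isotype in these same samples, this was almost fixed beforehand. Counts of calls moved. Genes called for either antibody against isotype numbered 61, and 30 with DESeq2, 40 with edgeR's filterByExpr, 98 with no filter beyond 1 read, 29 with both antibodies as 1 group of 4 and 35 with the newer quasi-likelihood method. Those also apart from isotype numbered 49, and 28 with DESeq2 and 27 with 1 group of 4. Genes called for anti-Lag3 against isotype numbered 5, and 1 with DESeq2, 0 with filterByExpr (592 at an unadjusted p under 0.05), 20 with no filter beyond 1 read and 3 without Gm42418, mt-Rnr1 and mt-Rnr2. Genes that differed between the antibodies numbered 36, and 16 with DESeq2 and 58 with no filter beyond 1 read.

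With 1 sample left out, in which case the lone sample is assumed to vary like the other groups, the ranges were 6 to 86 genes for either antibody, 6 to 81 for those also apart from isotype, 46 to 161 for anti-PD1, 0 to 16 for anti-Lag3 (620 to 842 at an unadjusted p under 0.05), 3 to 49 between the antibodies, 1277 to 2462 genes above and 1215 to 2383 below isotype, the last 2 growing with fewer samples by construction. A gap of at least 1.2-fold between the nearest samples left 261 genes above and 245 below, and 26 of the 49 genes.

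The median ratio of effects, 0.565, was 0.538 without the abundant RNAs, 0.649 and 0.405 with the isotype samples split, 0.512 and 0.508 within samples numbered 1 and 2, 0.471 over all 61 called genes and 0.498 to 0.582 with 1 sample left out. Named genes that changed sign did not pass in any setting: Lag3 (-0.026 by limma-voom, and -0.33 to 0.59 with 1 sample left out), Cd69 (0.0010 with 1 group of 4, and -0.31 to 0.19), Pdcd1 (-0.23 to 0.051) and Nr4a1 (-0.36 to 0.33). Deviations of same-numbered samples had correlations of -0.06 to 0.04 over genes, which cannot decide whether samples were handled by number. The paper excluded a replicate batch whose samples had been sorted and processed together. Gm42418 took more of the reads in the sample numbered 1 of every group (isotype 21.0 against 19.4%, anti-PD1 19.1 against 17.7%, anti-Lag3 18.7 against 17.4%). With the replicate number as a block 78 genes were called for either antibody, against 61 without it, and 60 of the 78 stood apart from isotype. For anti-PD1 144 genes were called with the block, against 107. The causes were not tested. With 2 samples per group, a gene that missed the threshold is not shown to be equal between groups.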
